A study of Brachypodium distachyon with 8 samples.

Results

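In leaves of Brachypodium, 145 of 14922 expressed genes met a criterion of induction by methyl jasmonate (MeJA) in the libraries that carried the LITTLE NINJA (LNJ) transcript and did not meet it in the libraries without that transcript. The members were selected on these FPKM values themselves. A gene was counted as raised where its mean FPKM after MeJA was at least 2 times the mock mean and both MeJA libraries lay above both mock libraries, and only genes with a mean of at least 1 FPKM over the 8 libraries were considered. FPKM counts sequenced fragments per kilobase of a transcript relative to all mapped fragments of a library. By this criterion, 266 genes (1.78%) were raised under the wild-type label and 620 genes (4.15%) under the MTL-OX label. The 2 sets shared 121 genes, and the 145 members are the remainder of the first set. The larger count under the MTL-OX label depended in part on scaling. With libraries scaled by median ratios, 243 genes were raised under the wild-type label and 362 under the MTL-OX label. The rule then selected 157 genes, of which 129 were among the 145. Membership depended in part on single libraries. The same rule gave 326 genes without wild-type mock replicate 1 and 267 without wild-type mock replicate 2, of which 121 and 113 were among the 145. Leaving out a mock library also loosens the requirement of no overlap, and 451 and 437 genes were then raised under the wild-type label.

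The mRNA of Brachypodium distachyon Bd21-3 leaves was sequenced in 4 groups with 2 biological replicates each. By label, these were wild-type plants after mock treatment (replicates 1 and 2) and after MeJA (replicates 3 and 4). The other groups were labelled as MTL-OX plants after mock treatment (replicates 5 and 6) and after MeJA (replicates 7 and 8). The LNJ transcript went against these genotype labels, as described below. MTL-OX, earlier named ABI, is the label of the plants that the study calls BdLNJ-OX, transgenic plants overexpressing LNJ from a binary vector whose promoter is not named in the sources used here. Several independent lines were made, and which of them was sequenced is not named. Each sample pooled leaves of several plants of about a month of age, MeJA was sprayed repeatedly in a Tween solution, and the spraying schedule is described differently in different places of the methods.

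The LNJ transcript went against the genotype label in all 8 libraries. The identifier of LNJ is BRADI1G69970. It had 689 and 762 FPKM in the mock libraries labelled wild type and 597 and 581 FPKM in the MeJA libraries labelled wild type. LNJ was listed at 0 in 3 libraries labelled MTL-OX and at 0.834 FPKM, from 1 fragment, in the MeJA replicate 8. The names of the deposited tables give the opposite genotype of the labels for every sample. The labels were kept here, each group is named by its label throughout, and every direction between genotypes turns round if the table names are the right ones. The treatment is the same in the labels and in the table names. Depth was even, with 13452995 to 15821699 implied fragments per library. MTL-OX mock replicate 5 had the lowest scaling factor from median ratios (0.85), followed by MTL-OX mock replicate 6 (0.94), while the other libraries lay between 0.99 and 1.11. Scaling by these factors moved the median log2 difference of all genes in mock-treated libraries from -0.19 to -0.0048, so counts between genotypes are given below with the share of all genes beside them.

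Jasmonates are hormones of plant defense, growth and reproduction. In their absence, JAZ proteins bind transcription factors of the MYC type and, through the adaptor NINJA, bring in the corepressor TOPLESS. Perception of the hormone by the receptor COI1 leads to degradation of JAZ proteins and to transcription of the responsive genes. LNJ is a microProtein, a small protein related in sequence to the larger NINJA. LNJ, a JAZ gene and NINJA itself have known identifiers, and none of them was a member. BRADI1G21490, named as a JAZ gene, had 25.2 and 27.0 FPKM in the mock libraries labelled wild type, 26.1 and 30.4 FPKM after MeJA, 43.4 and 36.6 FPKM in the mock libraries labelled MTL-OX and 49.4 and 57.2 FPKM after MeJA. It was higher in all 4 libraries labelled MTL-OX than in the other 4, by 0.74 on the log2(FPKM + 1) scale (SE 0.12, adjusted p = 0.0392, limma with Benjamini-Hochberg adjustment), which is under the 2-fold required for a call. BRADI2G11790, named as NINJA, stayed between 16.6 and 26.7 FPKM in the 8 libraries, and its values overlapped between the genotypes.

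Of the 145 members, 140 carried no gene name in the deposited tables, and no annotation used here pairs their identifiers with a name or a role. They are therefore described by identifier, position and level, and at most 2 identifiers are printed for each direction of a pattern. The members lay on chromosomes 1 (48 genes), 2 (38 genes), 3 (29 genes), 4 (22 genes) and 5 (8 genes), and the shares of all expressed genes on these chromosomes ran in the same order. They were weakly expressed, with a median over the members of 3.64 FPKM (mean of 8 libraries) against 8.23 FPKM over all expressed genes, and 85 members (58.6%) were under 5 FPKM against 35.3% of all expressed genes. Their loci were also shorter, with a median of 1427 bp against 3316 bp. In 25 members the lower of the 2 MeJA libraries labelled wild type held fewer than 10 implied fragments, in 61 it held 10 to under 100, and in 59 it held 100 or more. In bulk leaf RNA, fewer cells of a type and less RNA per cell cannot be told apart for any of these values.

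**Figure D1:**
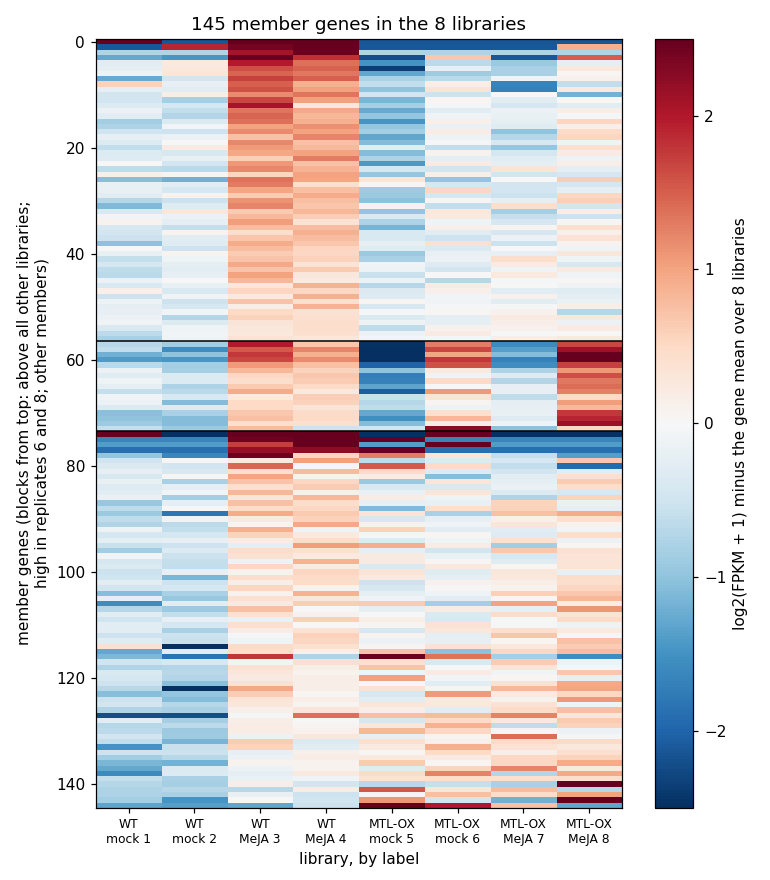
Heat map of the 145 members (rows) in the 8 libraries (columns, named by label and replicate), coloured by log2(FPKM + 1) minus the gene's mean over the 8 libraries, with colours saturating beyond 2.5 in either direction. The upper block holds the 57 members whose MeJA libraries labelled wild type exceeded all other libraries, the middle block 17 further members that were high in MTL-OX replicates 6 and 8 and low in 5 and 7, and the lower block the other 71; that wild-type MeJA 3 and 4 exceed mock 1 and 2 in every row is what the selection required.

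The rise after MeJA in the libraries labelled wild type, which defined the members, was mostly moderate. It was 2- to under 3-fold in 87 members, 3- to under 5-fold in 34, 5- to under 10-fold in 13 and 10-fold or more in 6, and the other 5 members were listed at 0 in both mock libraries. The median fold was 2.59 over the 140 members with a mock value above 0. The values that fixed membership did so narrowly in some genes. The 3 members closest to the threshold were BRADI2G04990, BRADI4G20426 and BRADI2G57680, each at 2.01-fold. The 3 genes just outside it, BRADI4G30910, BRADI4G28000 and BRADI1G48770, had ratios of 1.999, 1.998 and 1.996. BRADI2G57680 (chromosome 2, 55787292 to 55789050) had 81.5 and 78.4 FPKM in mock and 150.0 and 172 FPKM in MeJA libraries with the wild-type label, against 154 and 114 FPKM in mock and 191 and 233 FPKM in MeJA libraries with the MTL-OX label. Its MeJA libraries were above its mock libraries under both labels, and only the smaller 1.58-fold ratio in the libraries labelled MTL-OX made it a member.

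Failing the criterion in the libraries labelled MTL-OX took several forms. In 28 members both MeJA libraries were above both mock libraries, but by less than 2-fold (36.3% of all expressed genes had this pattern). In 16 members the mean was at least 2-fold higher after MeJA, but the replicates overlapped (0.59%). In 61 members the mean was higher after MeJA by less than 2-fold with overlapping replicates (32.2%), in 38 it was lower after MeJA (26.7%), and 2 members were listed at 0 in all 4 libraries. The mean was thus higher after MeJA in 105 members, a share of 72.4% against 73.2% of all expressed genes. The median fold of MeJA over mock in the libraries labelled MTL-OX was 1.37 over the 142 members with a mock mean above 0. On the log2(FPKM + 1) scale, the members' median change after MeJA in the libraries labelled MTL-OX was 0.36 against 0.18 over all expressed genes, and it was 0.18 against -0.01 after scaling by median ratios.

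**Figure D2:**
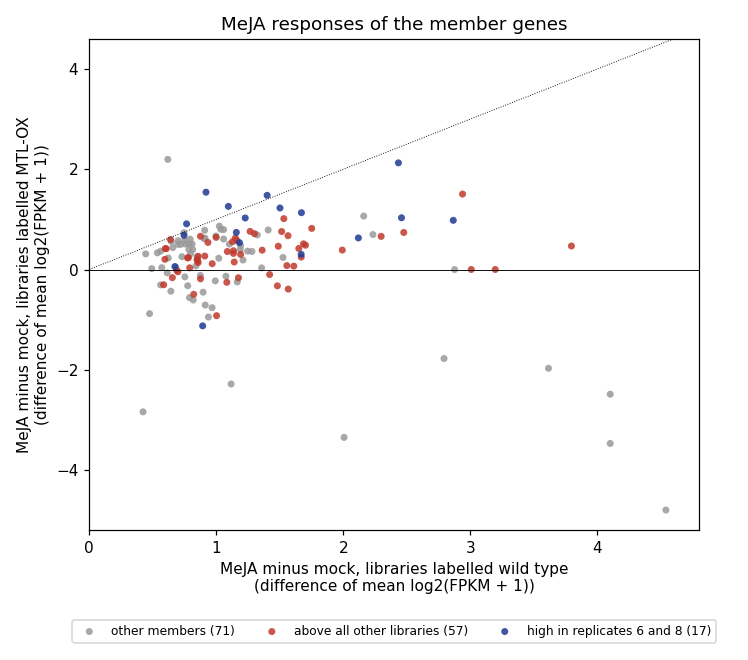
Change after MeJA of each member under the wild-type label (x axis) and under the MTL-OX label (y axis), each as a difference of mean log2(FPKM + 1) of 2 libraries. The dotted line marks equal changes, the solid line no change in the libraries labelled MTL-OX, and colours give the blocks of the heat map; 105 members had a higher and 38 a lower mean FPKM after MeJA in the libraries labelled MTL-OX.

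The difference between the 2 MeJA responses was part of the selection, so its values are a description. Its median on the log2(FPKM + 1) scale was -0.76 over the members (MTL-OX minus wild type by label) and 0.15 over all expressed genes. No member passed the threshold of an adjusted p of at most 0.05 with at least 2-fold (limma with Benjamini-Hochberg adjustment, lowest adjusted p 0.0983), where 2 of 14922 genes (0.0134%) passed. At an unadjusted p under 0.05 the difference was negative in 35 members and positive in 0, and over all genes it was negative in 0.838% and positive in 5.5%. With voom, limma's method for counts, on the implied fragments, no member passed either. MeJA against mock under the wild-type label is the contrast that selected the members, so the direction of its calls was fixed by the selection and nothing is read from them. Of the members only BRADI1G76510 passed there, where 5 genes (0.0335%) were called in all, 2 higher (0.0134%) and 3 lower (0.0201%). At an unadjusted p under 0.05, 83 members were higher and 0 lower (3.9% and 2.09% of all genes). The counts under the MTL-OX label are likewise limited by the requirement that members were not raised there. Under that label no member passed, where 8 genes (0.0536%) were higher and 3 (0.0201%) lower, 11 genes (0.0737%) in all. At an unadjusted p under 0.05, 10 members were higher and 5 lower there (17.1% and 1.82% of all genes). With 2 libraries against 2, an exact permutation test of a single gene cannot give a p below 0.333.

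In 57 members both MeJA libraries labelled wild type were above all other 6 libraries (9.25% of all expressed genes). In 34 of them the MeJA mean labelled wild type was also at least 2 times each of the other 3 group means (0.315%). Since membership already required a rise over the mock libraries of the same label, these shares are not set against each other as a test. The 57 counted 74 without wild-type MeJA replicate 3 (17.1% of all expressed genes), 77 without MTL-OX MeJA replicate 8 (14.2%) and 55 after scaling (6.63%). BRADI3G32340 (chromosome 3, 34708353 to 34709741) had the highest mean level of these members. It had 148 and 213 FPKM in mock and 717 and 472 FPKM in MeJA libraries with the wild-type label, against 63.8 and 114 FPKM in mock and 94.5 and 152 FPKM in MeJA libraries with the MTL-OX label. The MeJA libraries labelled wild type therefore stood above the other 6, while mock libraries labelled wild type and MeJA libraries labelled MTL-OX overlapped narrowly. BRADI1G25517 (chromosome 1, 20739671 to 20742093) had 31.1 and 41.8 FPKM in mock and 94.6 and 86.2 FPKM in MeJA libraries with the wild-type label, against 13.2 and 17.7 FPKM in mock and 18.8 and 35.3 FPKM in MeJA libraries with the MTL-OX label. Its mean after MeJA was 90.4 ± 5.91 FPKM (SD, n = 2) with the wild-type label and 27.0 ± 11.7 FPKM (SD, n = 2) with the MTL-OX label.

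BRADI1G76510 (chromosome 1, 73082489 to 73085333) was detected only after MeJA in the libraries labelled wild type. It had 6.05 and 8.17 FPKM there, from 103 and 142 implied fragments, and was listed at 0 in the other 6 libraries. No fold is given against groups listed at 0. Its locus overlaps another annotated locus, so fragments of the 2 loci may have been divided between them by the estimation. Its mean over the 8 libraries passed the minimum of 1 FPKM only through the 2 libraries for which it was selected, so the direction of its difference between genotypes was fixed by the filter and the selection, and its values are a description. In MeJA-treated libraries the fit gave a difference of -3.01 on the log2(FPKM + 1) scale (MTL-OX minus wild type by label, SE 0.20, adjusted p = 0.00507, limma with Benjamini-Hochberg adjustment). Over the alternatives this adjusted p ranged from 0.00227 to 0.188, and the call was lost with a pseudocount of 0.1 and without replicate 3, replicate 4 or replicate 8.

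The genotype averaged over both treatments compares 4 libraries with 4, with treatment as covariate. It uses the same libraries as the selection but not the same contrast. The call required an adjusted p of at most 0.05 and at least 2-fold, and 165 of 14922 genes (1.11%) met it, 45 higher (0.302%) and 120 lower (0.804%) in the libraries labelled MTL-OX. Among the members 2 were higher and 2 were lower. At an unadjusted p under 0.05, 14 members were higher and 18 lower, against 6.39% and 22.7% of all genes. After scaling by median ratios, 16 members were higher and 15 lower at that p, against 1931 and 2293 of 14922 genes. By the criterion of the call, scaling left 36 genes higher and 16 lower, with 1 member in each direction. The members' median was -0.11 on the log2(FPKM + 1) scale and that of all expressed genes was -0.10.

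Both members that were lower in the libraries labelled MTL-OX belonged to those that stood above all other libraries after MeJA. BRADI3G32340 differed by -1.66 on the log2(FPKM + 1) scale (SE 0.33, adjusted p = 0.0432, limma with Benjamini-Hochberg adjustment). BRADI1G25517 differed by -1.48 (SE 0.23, adjusted p = 0.0373, the same test). For both genes all 4 libraries labelled MTL-OX were below the MeJA libraries labelled wild type, and for BRADI1G25517 the 3 lowest values were the mock libraries and MeJA replicate 7 labelled MTL-OX.

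Both members that were higher in the libraries labelled MTL-OX were already high there after mock treatment. BRADI4G29830 (chromosome 4, 35478940 to 35482003) had 33.4 and 32.8 FPKM in mock and 79.9 and 80.0 FPKM in MeJA libraries with the wild-type label, against 119 and 77.5 FPKM in mock and 108 and 143 FPKM in MeJA libraries with the MTL-OX label. Of the 4 libraries labelled MTL-OX, 3 were above every library labelled wild type. It differed by 1.07 on the log2(FPKM + 1) scale (SE 0.22, adjusted p = 0.0448, limma with Benjamini-Hochberg adjustment). BRADI5G09880 (chromosome 5, 13172968 to 13176927) had 0.399 and 0.358 FPKM in mock and 1.10 and 0.676 FPKM in MeJA libraries with the wild-type label, against 1.53 and 3.06 FPKM in mock and 2.28 and 3.82 FPKM in MeJA libraries with the MTL-OX label. All 4 of its values labelled MTL-OX were above all 4 labelled wild type. The fit gave a difference of 1.15 on the log2(FPKM + 1) scale (SE 0.20, adjusted p = 0.0402, the same test). Its mean passed the minimum of 1 FPKM only through the libraries labelled MTL-OX, so the filter bears on the direction of this call, which was lost with no filter (adjusted p = 0.0556, the same test).

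These 4 calls were near the threshold. None of them kept its call in every setting, the highest adjusted p over the alternatives was 0.136, and leaving out any replicate other than 6 ended all 4. Without MTL-OX mock replicate 6, BRADI5G09880 was still below the adjusted p threshold but just under 2-fold, and 14 members (13 lower and 1 higher) were called in place of 4, among 704 genes (589 lower and 115 higher) in place of 165. The direction was the same for the 4 genes under every alternative in which they were fitted. BRADI5G09880 was not fitted at a mean of at least 5 FPKM.

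**Figure D3:**
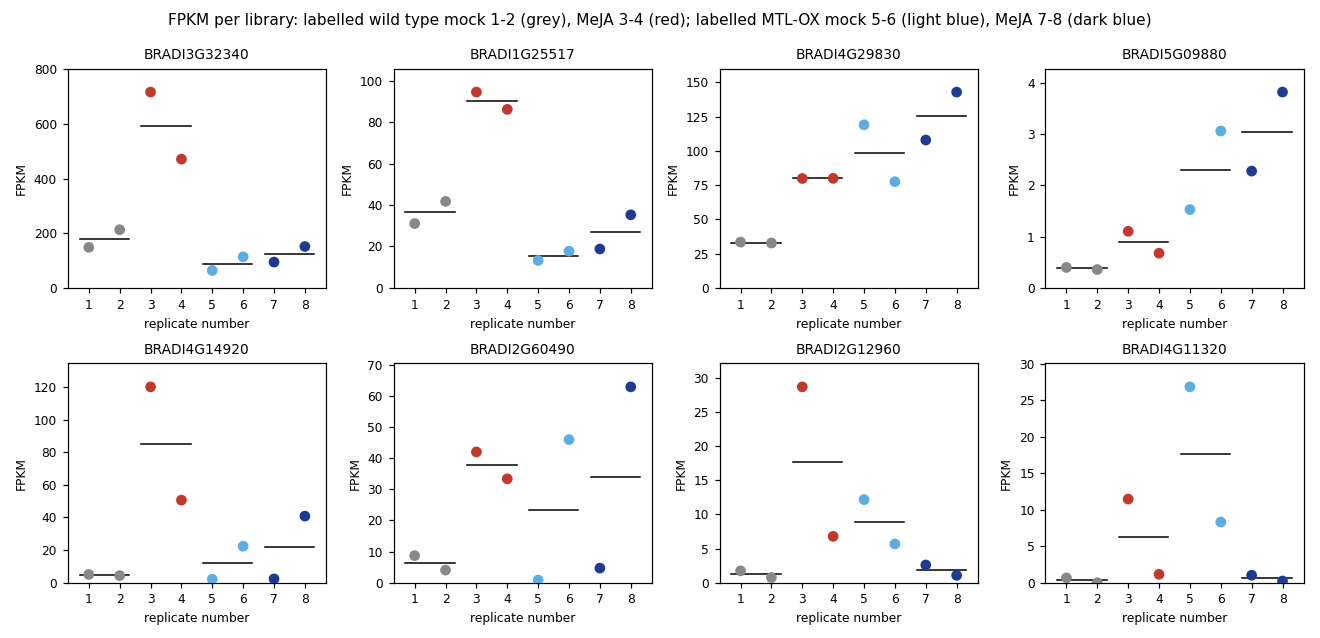
FPKM of 8 members in each library (points, by replicate number) with the mean of each group of 2 as a line and linear axes starting at 0. In the upper row BRADI3G32340 and BRADI1G25517 were highest in replicates 3 and 4, and BRADI4G29830 and BRADI5G09880 had most of their highest values in replicates 5 to 8; in the lower row BRADI4G14920 and BRADI2G60490 were high in replicates 6 and 8 but not 5 and 7, and BRADI2G12960 and BRADI4G11320 were higher in replicates 5 and 6 than in 7 and 8.

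Among mock-treated libraries, 51 members were higher in both libraries labelled MTL-OX than in both labelled wild type, while 9.06% of all expressed genes had this pattern. In 35 of them the difference was at least 2-fold (1.23%). In the opposite direction 7 members were lower without overlap (43.3%), 3 of them at least 2-fold (4.29%). After scaling, 59 members were higher without overlap against 22.0% of all expressed genes, and 41 at least 2-fold against 2.12%. Without MTL-OX mock replicate 5 the 51 became 99, and the share of all expressed genes became 19.5%. These mock libraries labelled wild type also served as the baseline of the selection, so a low value in them favoured both membership and this pattern. The filter bears on it too, since some of these members passed the minimum of 1 FPKM only through the libraries labelled MTL-OX. BRADI1G59250, chosen after its values were seen, had at most 0.792 FPKM under the wild-type label against 21.3 and 9.30 FPKM in mock libraries labelled MTL-OX. These counts are therefore a description. In the limma fit no member passed the threshold, where 12 genes (0.0804%) passed. At an unadjusted p under 0.05 the difference was positive in 27 members and negative in 2, and over all genes it was positive in 2.88% and negative in 18.3%. The lean of all genes to negative differences depended on scaling. After scaling the difference was positive in 34 members and negative in 1, against 1131 and 981 of 14922 genes. With voom on the implied fragments no member passed either. Without MTL-OX mock replicate 6 that group was left with 1 library. The median difference on the log2(FPKM + 1) scale was then 0.08 over the members and -0.23 over all expressed genes. With all 8 libraries and no scaling, the median over the members was 0.26 on the log2(FPKM + 1) scale against -0.19 over all expressed genes. In 25 members the mock mean labelled MTL-OX reached or exceeded the MeJA mean labelled wild type, a share of 17.2% against 27.0% of all expressed genes.

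Among MeJA-treated libraries, 69 members were lower in both libraries labelled MTL-OX than in both labelled wild type (30.8% of all expressed genes), 47 of them at least 2-fold (5.14%). Conversely 10 members were higher without overlap (24.7%), 2 of them at least 2-fold (2.86%). The MeJA libraries labelled wild type were chosen to be high, so these counts share values with the selection. Without MTL-OX MeJA replicate 8 the counts were 110 (50.7% of all expressed genes) and 72 (4.66%). The median difference was -0.41 on the log2(FPKM + 1) scale over the members and -0.01 over all expressed genes. Only BRADI1G76510 was called (lower), among 8 genes (0.0536%), of which 5 were higher (0.0335%) and 3 lower (0.0201%). At an unadjusted p under 0.05, 42 members were lower and 4 higher, against 10.4% and 6.59% of all genes.

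The 2 libraries of a group labelled MTL-OX differed strongly in some members. After mock treatment, replicate 6 was at least 2 times replicate 5 in 54 members (9.14% of all expressed genes) and replicate 5 was at least 2 times replicate 6 in 19 (4.26%). After MeJA, replicate 8 was at least 2 times replicate 7 in 44 members (3.75%) and the reverse held in 15 (2.21%). In 25 members both replicate 6 over 5 and replicate 8 over 7 reached 2-fold (1.19%), against 6 members with both in reverse (0.369%). Replicates labelled wild type also differed at least 2-fold more often in the members than in all expressed genes. After mock treatment replicate 1 was the higher in 18 members (12.4% against 2.27%) and replicate 2 in 15 (10.3% against 3.12%). After MeJA replicate 3 was the higher in 12 members (8.28% against 1.31%) and replicate 4 in 13 (8.97% against 1.29%). The members also held fewer fragments, with under 10 in a MeJA library labelled wild type in 17.2% of them against 3.4% of all expressed genes. The shares in this paragraph were not adjusted for level. Whether replicates 6 and 8 share a batch is not stated in the labels, and the part of replicate differences in membership was not tested. Overlapping replicates alone kept the 16 members described above from being counted as raised in the libraries labelled MTL-OX.

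BRADI4G14920 (chromosome 4, 15540117 to 15540745) had the highest fold over mock, 18.1, among members with a mock value above 0 and at least 20 implied fragments in each MeJA library labelled wild type. It had 5.05 and 4.36 FPKM in mock and 120.1 and 50.6 FPKM in MeJA libraries with the wild-type label, against 2.13 and 22.4 FPKM in mock and 2.34 and 40.8 FPKM in MeJA libraries with the MTL-OX label. In the libraries labelled MTL-OX the gap between replicates exceeded the gap between treatments. BRADI2G60490 (chromosome 2, 57838000 to 57839340), chosen after its values were seen, had 8.70 and 4.05 FPKM in mock and 42.0 and 33.4 FPKM in MeJA libraries with the wild-type label, against 0.849 and 46.0 FPKM in mock and 4.68 and 62.9 FPKM in MeJA libraries with the MTL-OX label. Replicates 6 and 8 labelled MTL-OX were above the MeJA libraries labelled wild type, and replicate 5 was below every other library.

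**Figure D4:**
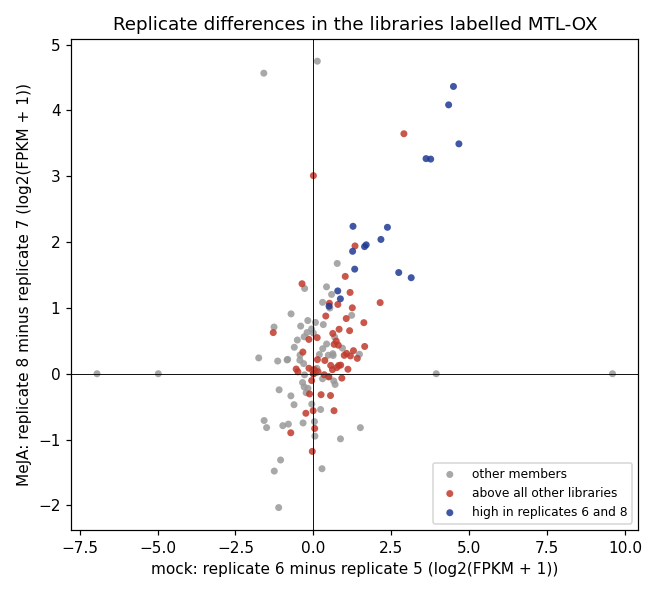
Difference between the replicates labelled MTL-OX for each member on the log2(FPKM + 1) scale, as replicate 6 minus 5 after mock treatment (x axis) and replicate 8 minus 7 after MeJA (y axis), with the colours of the heat map. The members high in replicates 6 and 8 lie in the upper right, where 25 members (17 in blue and the others in red) had at least 2-fold differences in FPKM in both pairs.

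In 11 members both MeJA libraries labelled MTL-OX were below both mock libraries of that label, the opposite of the change that selected them in the other label, a share of 7.59% against 6.51% of all expressed genes. In 7 of the 11 the fall was at least 2-fold (0.905%). After scaling the counts were 17 (11.7% of the members against 18.4% of all expressed genes) and 9 (1.54% of all expressed genes). With a library labelled MTL-OX left out, which loosens the criterion, they were 19 to 31 (13.1% to 25.3% of all expressed genes) and 9 to 15 (1.36% to 3.13%). Of the 7, BRADI1G59250 had at most 0.792 FPKM under the wild-type label and passed the minimum of 1 FPKM only through the libraries labelled MTL-OX. BRADI4G18890 held at most 9.59 implied fragments in any library. The count of 7 and its share are therefore a description. BRADI2G12960 (chromosome 2, 11370162 to 11370993) had 1.73 and 0.755 FPKM in mock and 28.6 and 6.77 FPKM in MeJA libraries with the wild-type label, against 12.2 and 5.67 FPKM in mock and 2.59 and 1.08 FPKM in MeJA libraries with the MTL-OX label. Its mean was 14.2-fold higher after MeJA under the first label and 4.85-fold lower under the second. BRADI4G11320 (chromosome 4, 11098140 to 11098775), chosen after its values were seen, had 0.661 FPKM and a listed 0 in mock and 11.5 and 1.15 FPKM in MeJA libraries with the wild-type label, against 26.8 and 8.31 FPKM in mock and 1.02 and 0.236 FPKM in MeJA libraries with the MTL-OX label. Its low values came from few fragments, with 9 in MeJA replicate 4 and 6 in mock replicate 1 of the libraries labelled wild type. In both genes wild-type MeJA replicate 3 was several times replicate 4.

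Some members were neighbours. Another member lay within 50 kb of 19 members (13.1%), while 5.69% of the 14777 other expressed genes had a member within that distance. Within 10 kb the shares were 9.66% (14 members) and 1.43%. The members formed 11 pairs within 50 kb, and 8 of these pairs had no other listed gene between them. In 3 pairs both genes had their highest values in wild-type MeJA replicates 3 and 4, and in 3 pairs both were among the 25 with high replicates 6 and 8. The latter include BRADI1G76460 and the microRNA gene bdi-MIR528, 632 bp apart. That microRNA gene, described below, held no more than 6 implied fragments in any library. The pair BRADI4G09417 and BRADI4G09430 on chromosome 4, 2986 bp apart and chosen after their values were seen, was of the first kind. BRADI4G09417 had 0.704 and 0.229 FPKM in mock and 4.66 and 2.65 FPKM in MeJA libraries with the wild-type label, and 0.0480, 0.923, 0.815 and 0.987 FPKM in replicates 5 to 8 labelled MTL-OX. BRADI4G09430 had 3.66 and 2.66 FPKM in mock and 19.5 and 12.2 FPKM in MeJA libraries with the wild-type label, and 1.94, 5.70, 4.29 and 5.38 FPKM in replicates 5 to 8 labelled MTL-OX. In both genes replicate 5 was the lowest library. Fragments shared by similar neighbouring copies could not be examined, because no sequences of these genes were used here.

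The 5 members with a name in the deposited tables were small RNA genes with very few fragments. They were 2 genes for U2, a small nuclear RNA of the spliceosome, a gene for U3, a small nucleolar RNA that acts in ribosomal RNA processing, and the microRNA genes bdi-MIR169g and bdi-MIR528. Their loci were 160 to 219 bp long, and no library held more than 6 implied fragments for any of them. At this locus length few fragments gave many FPKM. The bdi-MIR528 gene (chromosome 1, 73059536 to 73059695) had the highest mean FPKM of all members. It had 677 and 535 FPKM in mock and 1758 and 713 FPKM in MeJA libraries with the wild-type label, against 722 and 4819 FPKM in mock and 502 and 1458 FPKM in MeJA libraries with the MTL-OX label, from 1 to 6 fragments each. Both U2 genes were listed at 15.8 and 16.5 FPKM after MeJA in the libraries labelled wild type, from 1 fragment each, and their values were the same in 7 of the 8 libraries. The bdi-MIR169g gene was listed at 40.6 FPKM and 0 in mock and at 80.8 and 41.7 FPKM in MeJA libraries with the wild-type label, and at 0 in all 4 libraries with the MTL-OX label. With 1 to 6 fragments in a library, no difference in these genes was detectable at this depth.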

How the data were processed

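Leaf mRNA of Brachypodium was sequenced by the authors from TruSeq libraries on a HiSeq2000, checked with FastQC, aligned with TopHat2 and quantified with Cufflinks in Galaxy; the genome build is not given in the sources used here. The deposited unit is FPKM per gene with confidence bounds, 1 table per sample, without pooling of replicates, and values of repeated identifiers were added. Implied fragments were computed as the square of 2 FPKM over the distance to the upper bound; 83.6% to 84.8% of values of few fragments came out whole within 0.05. They cover counting error only.

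Groups came from the sample labels, which number the samples from 1 to 8 and give no batch. Genes averaging at least 1 FPKM were tested in limma 3.58.1 (R 4.3.3) on log2(FPKM + 1), with 1 mean per group (4 residual degrees of freedom) or, over both treatments, genotype with treatment as covariate (5 residual degrees of freedom). P-values were adjusted over all 14922 genes, and folds on this scale understate changes of low genes. The fit was tested on simulated data. Values between biological replicates are the only error measured.

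The members, lists and tests were chosen with earlier results of these data known. The genes named are those with a study identifier, the highest folds with at least 20 implied fragments in each MeJA library labelled wild type, the highest mean FPKM, the called members and those nearest the threshold, printed up to 2 per direction. Lists of pathway genes and cell type markers by annotation words could not be applied, since no identifier of the BRADI type was matched to a name in the RefSeq table (assembly v3.0), so the leaf label was not checked against markers. Alternatives were a pseudocount of 0.1, no filter or a mean of at least 5 FPKM, median-ratio scaling, limma's voom on implied fragments, folds of 1.5 and 3, a minimum of 10 implied fragments, only the 4 libraries compared, and each replicate left out. Chosen after seeing the data were scaled and leave-one-out versions of the counts between groups.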

Additional observations from a re-analysis of the deposited data

Results flagged for a closer look

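Of the 145 members, 11 were lower in both MeJA libraries labelled MTL-OX than in both mock libraries of that label, while every member was by selection higher in both MeJA libraries labelled wild type. This is a share of 7.59% against 6.51% of all expressed genes, and after scaling by median ratios it was 11.7% (17 members) against 18.4%. Without scaling, the share of the members was thus near that of all expressed genes. In 7 of the 11 the mean after MeJA was also at least 2-fold lower, a share of 4.83% against 0.905% of all expressed genes. The 7 include BRADI1G59250, which passed the minimum of 1 FPKM only through the libraries labelled MTL-OX. They also include BRADI4G18890, with at most 9.59 implied fragments in any library, so nothing is read from this share. This opposite movement was noticed from the position of the libraries, and the difference of the responses was not tested by it. The limma fit of that difference, which shares its contrast with the selection, called 0 members.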

How the results depend on the processing

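The number of genes selected was 649 with no filter on low values, 60 with a mean of at least 5 FPKM, 72 at a fold of at least 3 and 400 at a fold of at least 1.5, and it ranged from 106 to 326 with each replicate left out. For the genotype over both treatments, 4 members were called, and 0 with no filter, 2 after scaling, 8 with voom and 0 to 14 with a replicate left out (165 genes in all, 31 to 541 over the settings and 11 to 704 with a replicate left out). Replicate 6 gave the highest of these counts when left out. In mock-treated libraries 1 member was called with a pseudocount of 0.1 and 0 to 10 with a replicate left out (12 genes in all, 5 to 676 with a replicate left out), again with the highest count without replicate 6. Genotype in MeJA-treated libraries and MeJA in the libraries labelled wild type each called 1 member, 0 with a pseudocount of 0.1 or a mean of at least 5 FPKM, 5 with only the 4 libraries compared (among 21 and 19 genes, in place of 8 and 5) and 0 to 4 with a replicate left out (among 4 to 18 and 1 to 13 genes). MeJA in the libraries labelled MTL-OX called 0 members in every setting without a replicate left out. The difference of the responses called 1 member with no filter, among 7 genes. For these 2 comparisons, limma called 0 members in the main setting. An unadjusted p under 0.05 was found in 15 and 35 members, where 2825 and 946 of all 14922 genes had one. Both contrasts entered the selection, so nothing is read from these counts. For the 5 genes refitted under the alternatives (BRADI1G25517, BRADI3G32340, BRADI4G29830, BRADI5G09880 and BRADI1G76510) no direction turned. BRADI5G09880 and BRADI1G76510 were not among the genes fitted at a mean of at least 5 FPKM. Where a group was left with 1 library, it was assumed to vary like the others. No paired analysis was possible because the labels number the samples from 1 to 8 and no number is shared between groups. With 2 libraries a group and many members under 100 implied fragments, small differences were not detectable.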
